A study of Mus musculus with 24 samples.

Results

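Fully grown mouse oocytes that lack CNOT6L were compared with oocytes labelled as lacking BTG4, both at the germinal vesicle (GV) stage, when the oocyte is arrested before its first meiotic division. Levels are in FPKM, by definition fragment counts scaled by transcript length and library size. How the deposited values were scaled between libraries is not stated. The genes described are those that averaged 1 FPKM or more in the Cnot6l-/- or in the Btg4-/- GV oocytes, which holds for 10439 of the 23235 genes listed. Of these members, 9235 reached 1 FPKM in both groups, 455 in Cnot6l-/- alone and 749 in Btg4-/- alone. Just inside the threshold were Ntf3, with means of 1 FPKM in Cnot6l-/- and 0.46 FPKM in Btg4-/-, and Nav1, with 1 and 0.845 FPKM. Just outside were Hexa, with 0.515 FPKM in Cnot6l-/- and 0.995 FPKM in Btg4-/-, and Foxj2, with 0.35 and 0.995 FPKM.

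The study covers 3 genotypes at 4 stages from oocyte to zygote, a design of 12 groups that hold 2 RNA-seq libraries apiece. The groups used here are Cnot6l-/-, Btg4-/- and wild type (WT) GV oocytes of C57BL/6 mice at postnatal day 21, taken 48 h after an injection of PMSG, a hormone that stimulates follicle growth. For the same contrast at later stages, oocytes in the first meiotic division (MI) and eggs arrested in the second (MII) were cultured for 8 and 16 h, and zygotes were taken 24 h after hCG. The labels name no conditional driver and do not describe either allele. Each library is a pool of oocytes, 100 by the extraction protocol and 2 by the description of the series. Nothing says that the libraries of a group came from separate mice, and the p-values thus refer to a spread among libraries that may be technical.

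The CCR4-NOT complex removes poly(A) tails from mRNA, the first step of most mRNA decay. CNOT6L is one of its catalytic subunits, and BTG4 is an oocyte adaptor that brings the complex to mRNA during meiotic maturation. A GV oocyte is known to store maternal mRNA with little transcription of its own, and the bulk of that store is removed after meiosis resumes. Differences between both genotypes at GV therefore concern the transcripts present before this removal.

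Cnot6l (mm9, chromosome 5, 96505816 to 96591009, minus strand) had a transcript level of 5.92 and 4.30 FPKM in Cnot6l-/- oocytes, 42.9 and 41.0 FPKM in Btg4-/- oocytes and 73.9 and 24.1 FPKM in WT oocytes. Both Cnot6l-/- libraries lay below all others, and the log2 difference to Btg4-/- was -2.83 ± 0.65 (SE; limma, adjusted p = 0.00646). Without Btg4-/- GV 1 the difference was -2.79 and was not called. Btg4 (mm9, chromosome 9, 50924106 to 50927805, plus strand) had a level of 2287 and 2351 FPKM in Cnot6l-/-, 1641 and 2515 FPKM in Btg4-/- and 2490 and 2120 FPKM in WT. These groups overlapped, with a log2 difference of 0.19 ± 0.32 (adjusted p = 0.735). The transcript level thus does not check the Btg4-/- label, since the allele is not described, and Btg4-/- stands below for the libraries so labelled.

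Summed FPKM were 469619 and 495344 in the Cnot6l-/- libraries and 422039 and 545784 in the Btg4-/- libraries, a ratio of 0.997 ± 0.184 (SD). Across members, Pearson's r of log2(FPKM + 1) between any pair of the 6 GV libraries ran from 0.903 to 0.973, a description over genes that share their libraries. Read depth is unknown, because FPKM do not carry it. All 12 oocyte markers, among them Gdf9, Bmp15 and the zona pellucida genes Zp1, Zp2 and Zp3, were present. Zp3 had 2084 and 2717 FPKM in Cnot6l-/- against 2403 and 2697 FPKM in Btg4-/-, and no marker was called, with 0 at an unadjusted p under 0.05.

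Most genes were not called between both genotypes. Of the 10439 members, 623 were higher and 1321 were lower in Cnot6l-/- than in Btg4-/- at an adjusted p under 0.05 by limma, and 8495 were not called. Over all 10884 genes tested, 5.85% were called higher and 12.4% lower. The median log2 difference of the members was -0.14, and 6281 of them differed by less than 0.5 either way. A difference of at least 1 on the log2 scale was called for 302 higher and 492 lower members (2.77% and 4.52% of genes tested), and one of at least 2 for 66 higher and 56 lower members (0.606% and 0.515%). Log2 differences are on the log2(FPKM + 1) scale, which understates those of genes of low level.

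The smaller differences moved with the GC content of the transcripts and with single libraries. Members called lower had a median transcript GC content of 54.6% and those called higher 48.2%, against 49.7% for the 9880 members with an annotated coding transcript. With these members put in 10 bins of equal size by GC content, the median log2 difference was 0.20 in the lowest bin and -0.56 in the highest. In the highest bin 20 members were called higher and 303 lower, and in the lowest bin 56 were called higher and 14 lower. The library Cnot6l-/- GV 1 had a median deviation from the mean of the 6 GV libraries of 0.27 in the lowest bin and -0.46 in the highest, while Btg4-/- GV 1 ran the other way, with -0.25 and 0.51. Cnot6l-/- GV 2 varied less along GC content, with -0.19 and 0.07, as did Btg4-/- GV 2, with -0.06 and 0.28. WT GV 1 ran the way of Cnot6l-/- GV 1, with 0.56 and -0.28.

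**Figure D1:**
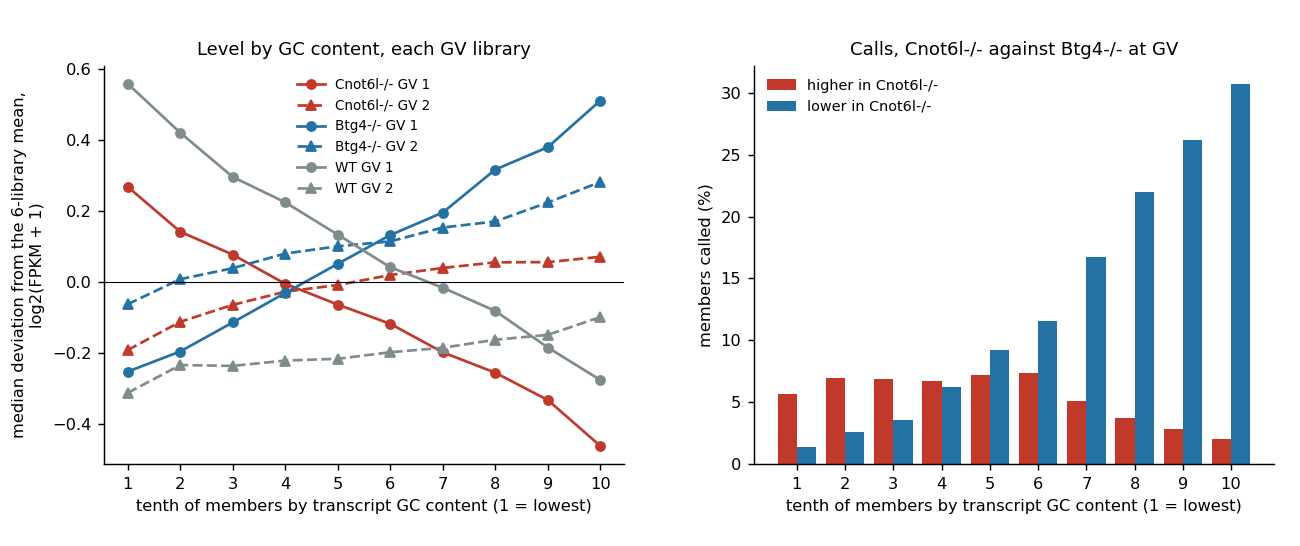
Left, median deviation of each GV library from the mean of the 6 libraries, in log2(FPKM + 1), over 10 bins of the members by transcript GC content (1 point per library and bin; the members of a bin number 987 to 989). Right, percent of the members of each bin called higher (red) or lower (blue) in Cnot6l-/- than in Btg4-/-. Cnot6l-/- GV 1 falls and Btg4-/- GV 1 rises along GC content, and lower calls pile up at high GC.

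After centring each GV library within bins of GC content, 849 members were called higher and 500 lower, so the share of higher among all calls was 62.9%, against 32.0% in the values as deposited. Median-ratio scaling gave 503 higher and 385 lower, a share of 56.6%. Without Cnot6l-/- GV 1 the counts were 347 higher and 327 lower, and without Btg4-/- GV 1 they were 326 and 445. Higher calls outnumbered lower ones after GC centring, after scaling and without Cnot6l-/- GV 1, and lower calls remained the more numerous without Btg4-/- GV 1. The 6 GV libraries alone gave 228 higher and 224 lower. The counts and p-values as reported take the spread of each gene from all 12 groups, and whether it suits the GV libraries was not tested. Groups in which a gene is listed at or near 0 add little spread. Defb8, for example, was listed at 0 in every Btg4-/- and WT library of all stages. Small p-values of such genes thus do not measure the spread among GV libraries alone. The part of GC content in single small differences was not tested. The differences of at least 2 held: of the 66 higher and 56 lower members, 65 and 56 were still called after GC centring and 64 and 54 after scaling. In each of 13 alternatives, 50 of the 66 and 46 of the 56 were called, and 0 turned round.

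Among the members lower in Cnot6l-/-, several were near 0 there and well expressed in Btg4-/-. Pnpla3, which encodes a lipid droplet-associated acylglycerol lipase (chromosome 15, 83998246 to 84019951, plus strand, mm9), had 0.11 and 0.21 FPKM in Cnot6l-/- and 86.8 and 90.1 FPKM in Btg4-/-, with 72.4 and 66.4 FPKM in WT. Its log2 difference of -6.27 ± 0.28 was the lowest of the genes named by rule (adjusted p = 1.0e-10), and the Cnot6l-/- libraries lay far below all 4 others. Cdc5l, a core component of the PRP19 complex of the spliceosome (chromosome 17, 45528839 to 45570656, minus strand, mm9), had 0.64 and 1.34 FPKM in Cnot6l-/-, 48.7 and 41.4 FPKM in Btg4-/- and 43.5 and 40.9 FPKM in WT. The log2 difference was -4.55 ± 0.32 (adjusted p = 3.77e-08). The promoters of both genes are shown as those of 2 members near 0 in Cnot6l-/- and well expressed in the other groups. They are RefSeq windows of 300 bases around the annotated start, 5′ to 3′, with E boxes (CANNTG, the motif of basic helix-loop-helix factors such as the oocyte factor FIGLA) in capitals.
Pnpla3 promoter, GRCm38.p6, chr15:84167566-84167865, plus strand: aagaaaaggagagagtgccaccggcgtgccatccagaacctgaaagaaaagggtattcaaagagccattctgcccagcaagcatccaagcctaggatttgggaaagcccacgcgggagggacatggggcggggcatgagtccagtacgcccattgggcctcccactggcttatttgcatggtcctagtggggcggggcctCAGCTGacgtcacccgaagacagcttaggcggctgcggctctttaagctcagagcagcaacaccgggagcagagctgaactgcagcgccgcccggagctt
Cdc5l promoter, GRCm38.p6, chr17:45433658-45433957, minus strand: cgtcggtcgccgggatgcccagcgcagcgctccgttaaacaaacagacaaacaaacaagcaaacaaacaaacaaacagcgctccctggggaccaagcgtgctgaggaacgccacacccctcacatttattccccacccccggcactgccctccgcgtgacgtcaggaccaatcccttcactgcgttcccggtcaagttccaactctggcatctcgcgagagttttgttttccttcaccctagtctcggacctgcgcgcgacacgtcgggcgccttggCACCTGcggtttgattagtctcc

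The Pnpla3 window holds 1 E box and 3 GC boxes (GGGCGG), and the Cdc5l window holds 1 E box and no GC box on either strand. Neither holds a TATAAA box. Of all 32851 promoters in the RefSeq table, 72.31% hold an E box, 35.66% a GC box and 13.62% a TATAAA box on either strand, so these motifs are common. The windows have GC contents of 59.67% and 58.67%, against a median of 52.67% over all promoters. A promoter was found for 19 of the 31 genes named by size or as a targeted gene.

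Several other named lower members encode enzymes. Manba, the lysosomal beta-mannosidase, had 0.16 and 0.22 FPKM in Cnot6l-/-, 54.7 and 53.5 FPKM in Btg4-/- and 20.3 and 17.9 FPKM in WT (log2 difference -5.53 ± 0.28, adjusted p = 6.51e-10). Btg4-/- was also called above WT (adjusted p = 0.00428). Gsto2, an omega-class glutathione transferase, had 0.36 and 0.47 FPKM in Cnot6l-/- and 19.9 and 21.2 FPKM in Btg4-/- (log2 difference -3.93 ± 0.25, adjusted p = 1.04e-08). Bcat2, the mitochondrial branched-chain aminotransferase, had 4.65 and 7.10 FPKM in Cnot6l-/- against 50.4 and 42.4 FPKM in Btg4-/- (log2 difference -2.80 ± 0.29, adjusted p = 4.93e-06). Neither gene was called between Btg4-/- and WT (adjusted p = 0.65 and 0.706). Ero1l, an oxidase of disulfide bond formation in the endoplasmic reticulum, had 0.48 and 0.44 FPKM in Cnot6l-/-, 12.1 and 8.39 FPKM in Btg4-/- and 2.34 and 1.32 FPKM in WT (log2 difference -2.93 ± 0.33, adjusted p = 1.21e-05). For this gene Btg4-/- was called above WT (adjusted p = 0.00147) and Cnot6l-/- was not called against WT (adjusted p = 0.103).

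Other named lower members encode cytokines, mitochondrial proteins, an exonuclease and a kinase. Il17b, a cytokine of the interleukin-17 family, had 5.46 and 11.5 FPKM in Cnot6l-/- and 60.8 and 113 FPKM in Btg4-/-, with 70.4 and 106 FPKM in WT (log2 difference -3.23 ± 0.33, adjusted p = 3.22e-06). Fam3b, a cytokine-like secreted protein, had 2.14 and 1.86 FPKM in Cnot6l-/- against 14.8 and 24.1 FPKM in Btg4-/- (adjusted p = 2.07e-05). Ccdc109b, a subunit of the mitochondrial calcium uniporter that dampens its activity, had 20.0 and 19.8 FPKM in Cnot6l-/-, 164 and 217 FPKM in Btg4-/- and 179 and 182 FPKM in WT. Its groups were far apart, with a log2 difference of -3.18 ± 0.30 (adjusted p = 1.28e-06). Fam54a, a mitochondrial fission regulator, had 9.06 and 4.71 FPKM in Cnot6l-/- against 64.8 and 61.3 FPKM in Btg4-/- (log2 difference -3.08 ± 0.71, adjusted p = 0.00721), and its call was lost without Btg4-/- GV 1. Isg20, an interferon-induced exonuclease, had 0.70 and 0.36 FPKM in Cnot6l-/- against 13.2 and 12.9 FPKM in Btg4-/-, and the serine/threonine kinase gene Stk32a had 0 and 0.06 FPKM in Cnot6l-/- against 28.4 and 43.6 FPKM in Btg4-/- (adjusted p = 5.24e-09 for each). In both genes the Cnot6l-/- libraries lay below every Btg4-/- and WT library.

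Defb48 and Defb8 encode beta-defensins, a family of antimicrobial peptides, and differed in opposite directions. Defb48 was listed at 0 in both Cnot6l-/- libraries and had 14.9 and 25.9 FPKM in Btg4-/-, while WT had 0.77 and 0.20 FPKM (adjusted p = 9.43e-08). Defb8 was the reverse, with 20.7 and 15.4 FPKM in Cnot6l-/- and a listing at 0 in both Btg4-/- and both WT libraries (adjusted p = 9.51e-10). Defensin, olfactory receptor and Cyp2c genes belong to families of similar sequence, and the authors' counting may have divided reads among relatives, which makes each value uncertain.

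**Figure D2:**
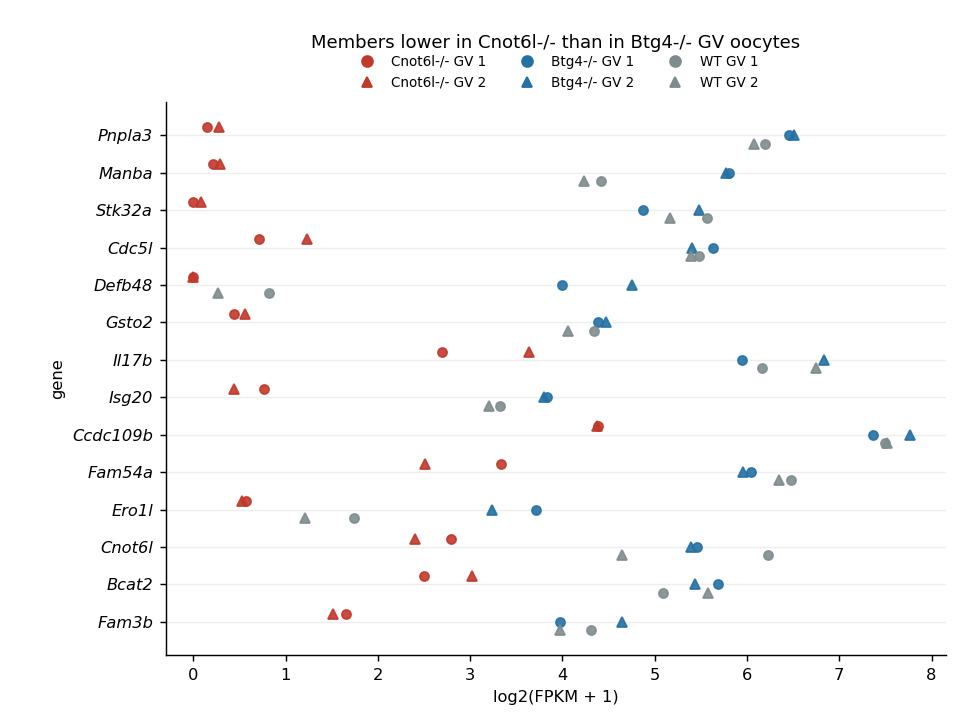
log2(FPKM + 1) of 14 of the 15 members lower in Cnot6l-/- than in Btg4-/- that the naming rule gave, Cnot6l included, 1 point per GV library (red Cnot6l-/-, blue Btg4-/-, grey WT; circles library 1, triangles library 2). In each gene both red points lie left of both blue points; for Defb48 and Ero1l the grey points lie near the red ones.

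The higher members included genes that were nearly silent or, for Arid5b, at a low level in Btg4-/- and WT. Cyp2c53-ps, a pseudogene of the Cyp2c cluster of cytochrome P450 genes, had 55.4 and 33.4 FPKM in Cnot6l-/-, 0.06 and 0.28 FPKM in Btg4-/- and 0.47 and 0.12 FPKM in WT. Its log2 difference was 5.24 ± 0.21 (adjusted p = 6.57e-11). The olfactory receptor gene Olfr878 had 19.4 and 10.8 FPKM in Cnot6l-/- and 0 and 0.11 FPKM in Btg4-/- (adjusted p = 1.3e-08). Ptpro, a receptor-type tyrosine phosphatase (chromosome 6, 137200820 to 137413154, plus strand, mm9), had 9.97 and 10.6 FPKM in Cnot6l-/-, 0.07 and 0.12 FPKM in Btg4-/- and 0.09 and 0.01 FPKM in WT (log2 difference 3.36 ± 0.14, adjusted p = 1.0e-10). Arid5b, a transcriptional coregulator with an AT-rich interaction domain (chromosome 10, 67558341 to 67741474, minus strand, mm9), had 34.5 and 41.1 FPKM in Cnot6l-/-, 5.40 and 0.35 FPKM in Btg4-/- and 4.78 and 4.11 FPKM in WT (log2 difference 3.72 ± 0.57, adjusted p = 2.69e-04). In both genes the Cnot6l-/- libraries lay above the 4 others. The promoters of both are shown as the counterpart of those above, with E boxes in capitals.
Ptpro promoter, GRCm38.p6, chr6:137252049-137252348, plus strand: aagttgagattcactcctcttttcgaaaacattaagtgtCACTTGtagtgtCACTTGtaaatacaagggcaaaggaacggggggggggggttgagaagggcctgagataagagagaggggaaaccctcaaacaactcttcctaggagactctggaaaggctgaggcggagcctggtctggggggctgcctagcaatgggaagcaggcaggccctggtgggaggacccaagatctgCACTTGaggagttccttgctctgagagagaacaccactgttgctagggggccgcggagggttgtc
Arid5b promoter, GRCm38.p6, chr10:68278677-68278976, minus strand: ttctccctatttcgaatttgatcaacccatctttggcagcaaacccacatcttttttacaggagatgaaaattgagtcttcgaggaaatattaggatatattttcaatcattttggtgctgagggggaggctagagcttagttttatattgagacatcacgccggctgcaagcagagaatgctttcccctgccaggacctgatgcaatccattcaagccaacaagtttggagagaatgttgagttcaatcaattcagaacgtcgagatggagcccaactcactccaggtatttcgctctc

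The Ptpro window holds 3 E boxes, no GC box and no TATAAA box, at a GC content of 54.67%. The Arid5b window holds no E box and 1 TATAAA box, at a GC content of 43.33%. No motif searched was found in all 4 windows.

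Other higher members were also low in WT. Inpp4a, a phosphatase of 3,4-bisphosphorylated inositol lipids, had 17.8 and 19.7 FPKM in Cnot6l-/- and 2.09 and 1.03 FPKM in Btg4-/- (log2 difference 2.98 ± 0.24, adjusted p = 2.31e-07). Gng10, a G protein gamma subunit, had 10 and 11.3 FPKM in Cnot6l-/- against 0.47 and 0.71 FPKM in Btg4-/- (log2 difference 2.88 ± 0.19, adjusted p = 1.44e-08). Fbxo16, an F-box protein gene, had 17.3 and 17.4 FPKM in Cnot6l-/- against 1.49 and 1.88 FPKM in Btg4-/-, and Fam57a, a gene of the TLC domain family, had 15.1 and 23.0 FPKM in Cnot6l-/- against 1.23 and 1.18 FPKM in Btg4-/-. WT libraries had 2.12 and 1.48 FPKM of Inpp4a and 0.79 and 0.94 FPKM of Fbxo16. The calcium-binding protein gene Ocm had 13.4 and 11.7 FPKM in Cnot6l-/- and 0 and 1.24 FPKM in Btg4-/-.

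In 3 further higher members WT lay between both genotypes. Mb, which encodes the oxygen-binding protein myoglobin, had 10.51 and 12.4 FPKM in Cnot6l-/-, 0.43 and 0.60 FPKM in Btg4-/- and 7.11 and 5.32 FPKM in WT. Xdh, xanthine dehydrogenase of purine breakdown, had 28.7 and 29.0 FPKM in Cnot6l-/-, 6.01 and 1.96 FPKM in Btg4-/- and 10.98 and 9.56 FPKM in WT. Akr1c21, a hydroxysteroid dehydrogenase, had 23.0 and 19.2 FPKM in Cnot6l-/-, 0.60 and 2.90 FPKM in Btg4-/- and 7.12 and 3.60 FPKM in WT. In all 3 genes the groups did not overlap. The last of the higher members described, Tceal8 and Rhbdf1, were less stable. Tceal8 (X chromosome) had 25.02 and 6.31 FPKM in Cnot6l-/- and 0.78 and 2.16 FPKM in Btg4-/-, both far under the 188 and 104 FPKM of WT. Rhbdf1, an inactive rhomboid, had 38.2 and 78.3 FPKM in Cnot6l-/-, 0.04 and 32.3 FPKM in Btg4-/- and 19.4 and 31.4 FPKM in WT, which lay within the Btg4-/- range. Its log2 difference of 3.24 ± 0.93 (adjusted p = 0.0231) was 0.74 and not called without Btg4-/- GV 1, and it was also not called without Cnot6l-/- GV 1 (3.75) or without Cnot6l-/- GV 2 (2.74), with the 4 or the 6 GV libraries alone, with a pseudocount of 0.1 or with no filter. The call of Tceal8 was lost without Cnot6l-/- GV 1 (log2 difference 1.62) and without Btg4-/- GV 1 (2.13).

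**Figure D3:**
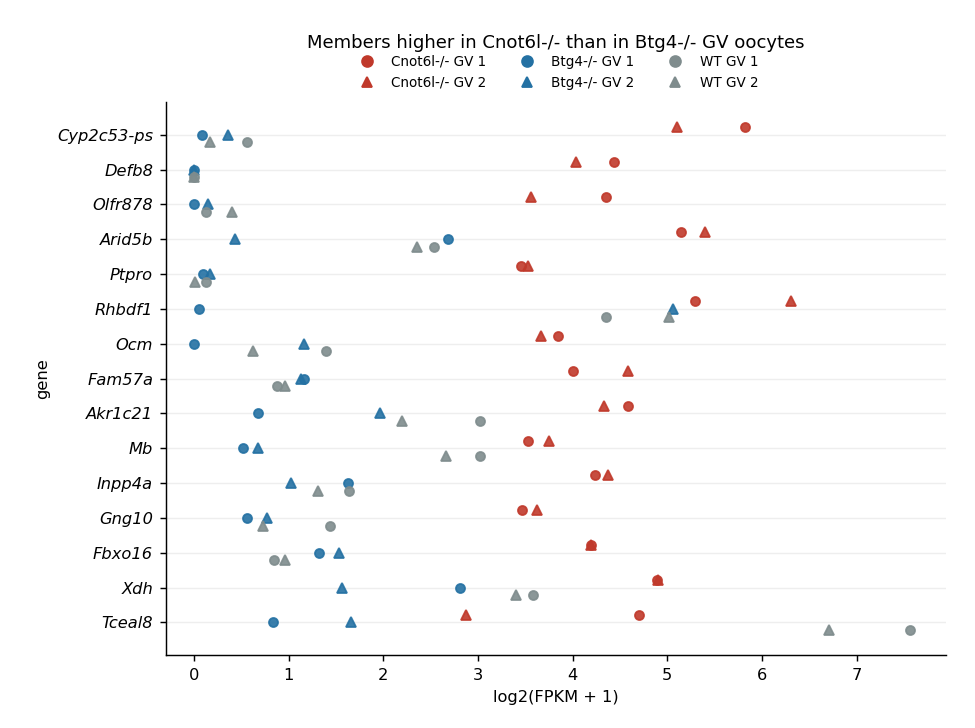
log2(FPKM + 1) of the 15 members higher in Cnot6l-/- than in Btg4-/- that the naming rule gave, 1 point per GV library (colours and shapes as in the plot of the lower members). Most blue and grey points sit together at the left; Tceal8 has its grey points at the right, and Rhbdf1 has its blue points far apart.

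Values against WT were read side by side for the members with a difference of at least 2 (66 higher and 56 lower). Both comparisons use the same WT libraries, and the members were chosen on the mutant libraries, so the counts are a description. Counts above and below WT are of genes called by limma at an adjusted p under 0.05, and medians are over all 66 or 56 members. Of the 66 higher members, 51 were called above and 1 was called below WT in Cnot6l-/-, with a median log2 difference of 2.01. In Btg4-/-, 0 of these were called above and 18 called below WT, with a median of -0.37. Of the 56 lower members, 0 were called above and 48 called below WT in Cnot6l-/- (median -2.45). In Btg4-/-, 14 of the 56 were called above and 0 called below WT (median 0.34). Over all genes tested, 6.06% were called above and 3.02% below WT in Cnot6l-/-, and 6.10% above and 1.33% below in Btg4-/-.

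The same contrast at later stages comes from other libraries of the same genotypes. The fit gave GV and the later stages the same spread per gene. A gene with a small spread is thus favoured for a call at each stage, and the calls are not independent. Of the 66 members higher by at least 2 at GV, 53 were called higher at MI, 58 at MII and 28 in zygotes. Over all genes tested, 3.59% were called higher at MI, 11.0% at MII and 1.71% in zygotes. Of the 56 lower members, 53 were called lower at MI, 38 at MII and 36 in zygotes, against 6.46%, 1.77% and 12.8% of all genes. The sign was kept at MI, MII and zygote alike by 57 of the 66 and 53 of the 56, and 25 and 30 were called at all of them. Among all called members, the counts called the same way were 211 of 623 higher and 355 of 1321 lower at MI. The counts were 308 higher and 121 lower at MII, and 101 higher and 273 lower in zygotes. The median log2 difference of all members itself changed sign along the stages, at -0.14 for GV, -0.19 for MI, 0.14 for MII and -0.17 for zygotes.

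Pnpla3 shows the course of a lower member. It had 0.20 and 0.20 FPKM in Cnot6l-/- against 118 and 111 FPKM in Btg4-/- at MI, 0.07 and 0.05 FPKM in Cnot6l-/- against 44.8 and 26.5 FPKM in Btg4-/- among MII eggs, and 0.01 and 0.03 FPKM in Cnot6l-/- against 14.6 and 9.83 FPKM in Btg4-/- zygotes. The Cnot6l-/- libraries were at or near 0 at every stage while the Btg4-/- level was lower in zygotes than at GV. Arid5b shows the course of a higher one, with 32.1 and 30.2 FPKM in Cnot6l-/- against 0.15 and 0.24 FPKM in Btg4-/- at MI, 28.2 and 30.6 FPKM in Cnot6l-/- against 1.0 and 1.13 FPKM in Btg4-/- at MII, and 21.7 and 31.4 FPKM in Cnot6l-/- against 0.09 and 0.13 FPKM in Btg4-/- zygotes. Cyp2c53-ps in Cnot6l-/- had 20.4 and 16.7 FPKM at MI, 8.5 and 6.88 FPKM at MII and 1.05 and 1.5 FPKM in zygotes, so its difference to Btg4-/- was 1.15 in zygotes (adjusted p = 0.00136). The change of the difference between GV and zygote was called for 37 of the 66 higher and 28 of the 56 lower members (7.62% of all genes). Between GV and MI it was called for 13 and 0 (0.974%), and between GV and MII for 14 and 27 (6.67%). These members were chosen for a large GV difference, so the shares of all genes are no baseline for them and nothing is read from the counts. The added 1 FPKM also shrinks log2 differences where levels are lower, and summed FPKM averaged 108980 in Cnot6l-/- zygotes, against 482480 in Cnot6l-/- GV oocytes.

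**Figure D4:**
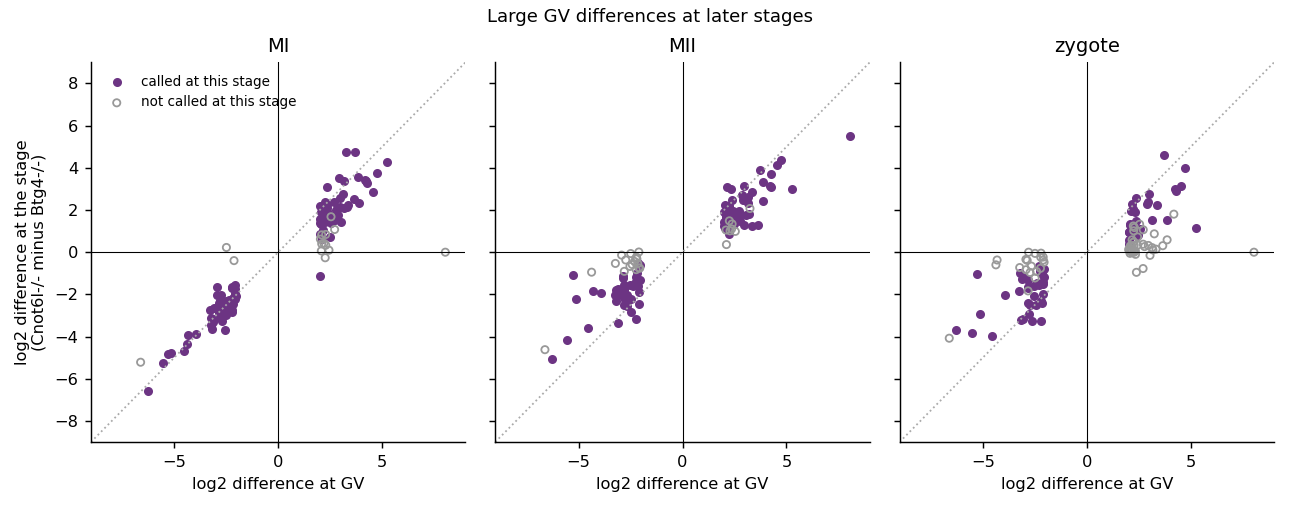
log2 difference (Cnot6l-/- minus Btg4-/-) at MI, MII and zygote on the vertical axis against that at GV on the horizontal axis, 1 point for each of the 66 higher and 56 lower members with a called GV difference of at least 2 (filled, called at that stage; open, not called; dotted line, equal differences). Nearly all points keep their sign, and at MI the lower members lie along the line, while in zygotes many points lie nearer to 0 on this scale, at lower FPKM levels.

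Among CCR4-NOT subunits and other deadenylases, 0 of 21 were called higher and 4 were called lower (19.0%), against 5.85% higher and 12.4% lower over all genes tested. These shares of all genes are the background for each list below, where higher and lower again mean called. Beside Cnot6l these were Pan2, the catalytic subunit of the PAN2-PAN3 deadenylase, with 7.15 and 8.43 FPKM in Cnot6l-/- and 17.6 and 12.8 FPKM in Btg4-/- (adjusted p = 0.0499), Tnks1bp1, a CCR4-NOT-bound protein (adjusted p = 0.0397), and Toe1, a nuclear deadenylase (adjusted p = 0.0487). After GC centring, and likewise after scaling, 1 of the 21 was called, Cnot6l. Cnot6, the paralogue of Cnot6l, had 3.58 and 3.21 FPKM in Cnot6l-/-, 5.45 and 5.64 FPKM in Btg4-/- and 9.36 and 3.49 FPKM in WT, and its log2 difference of -0.58 ± 0.44 was not called. Cnot7, which encodes the other type of catalytic subunit, had 140 and 73.8 FPKM in Cnot6l-/- against 60.4 and 87.7 FPKM in Btg4-/- (0.48 ± 0.63, not called). Of 5 BTG and Tob adaptors none was called (limma; 1 at an unadjusted p under 0.05). Btg2 was the lowest of them, with 5.42 and 3.95 FPKM in Cnot6l-/- against 7.48 and 7.94 FPKM in Btg4-/- (-0.63 ± 0.25, adjusted p = 0.0975).

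Of 39 decay and decapping genes 2 were lower, the exonuclease genes Dis3 and Dis3l, and 0 were higher. That is 5.13% lower, under the 12.4% of all genes. Dis3l had 8.15 and 8.61 FPKM in Cnot6l-/- and 30.5 and 16.4 FPKM in Btg4-/- (-1.32 ± 0.25, adjusted p = 0.0018). Of 26 genes of poly(A) tail extension and binding 3 were lower, or 11.5%, near the 12.4% of all genes. They were Cpeb4, a binding protein of cytoplasmic polyadenylation elements, Eif4enif1, an eIF4E-binding repressor (42.4 and 51.0 FPKM in Cnot6l-/- against 129 and 77.3 FPKM in Btg4-/-), and Pabpc1, a poly(A)-binding protein (3.69 and 5.98 FPKM in Cnot6l-/- against 9.62 and 10.3 FPKM in Btg4-/-). All 5 stayed called after GC centring. Cpeb1 and Zar1, which act in the translation of stored mRNA, were not called; Zar1 had 355 and 856 FPKM in Cnot6l-/- and 1215 and 1051 FPKM in Btg4-/-.

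Of 52 oocyte-specific and maternal-effect genes 4 were lower (7.69%, against 12.4% of all genes) and 0 higher. Oog1 had 15.8 and 11.2 FPKM in Cnot6l-/- and 45.1 and 40.6 FPKM in Btg4-/- (-1.61 ± 0.37, adjusted p = 0.00671), though it has close copies in the genome. Nlrp4e had 23.3 and 16.7 FPKM in Cnot6l-/- against 47.0 and 46.4 FPKM in Btg4-/-. Trim28, a corepressor of transposons and imprinted genes, and Zbed3, a protein of the subcortical maternal complex, were the others, and after GC centring these last 2 were not called. Of 57 meiotic cell cycle regulators 8 were lower, among them Plk1 (36.3 and 65.8 FPKM in Cnot6l-/- against 165 and 91.3 FPKM in Btg4-/-), the checkpoint kinase gene Bub1b (93.0 and 89.0 FPKM in Cnot6l-/- against 235 and 153 FPKM in Btg4-/-) and Fzr1, an activator of the anaphase-promoting complex. That is 14.0%, near the 12.4% of all genes, and 0 of the 57 were called after GC centring or after scaling. Of 42 spindle and microtubule genes 4 were lower (9.52%, against 12.4% of all genes; 2 after GC centring), including the kinesin gene Kif18b, with 0.44 and 0.72 FPKM in Cnot6l-/- against 4.07 and 1.74 FPKM in Btg4-/-.

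Pre-mRNA splicing genes were lower in 9 of 56 cases, or 16.1%, near the 12.4% of all genes, and higher in 0. Beside Cdc5l they were the helicase genes Dhx16, Dhx8 and Snrnp200, the core factor Prpf8, Sf3a2, Sf3b4, Srsf9 and U2af2. After GC centring 6 of the 56 were lower and 1 was higher, and after scaling 3 were lower. Snrnp200 had 2.75 and 3.06 FPKM in Cnot6l-/- and 9.76 and 6.67 FPKM in Btg4-/- (-1.22 ± 0.23, adjusted p = 0.00181). Lipid metabolism genes were lower in 6 of 35 cases, or 17.1%, against 12.4% of all genes: Pnpla3, the acyltransferases Dgat1 and Dgat2, the lipogenic genes Acly and Srebf1, and Sqle of sterol synthesis. Of these Pnpla3 and Sqle passed after GC centring, and 4 of the 35 were lower after scaling. Of 61 DNA repair and checkpoint genes 8 were lower (13.1%, against 12.4% of all genes), Brca1 and Rpa1 among them, and 1 was higher, Fancc of the Fanconi core complex. Fancc had 21.9 and 22.6 FPKM in Cnot6l-/-, 11.5 and 10.45 FPKM in Btg4-/- and 11.2 and 10.51 FPKM in WT (0.96 ± 0.26, adjusted p = 0.016). After GC centring 3 of these 61 were higher and 1 was lower.

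Stress and immediate early genes had 4 of 18 lower, the chaperone genes Hspa8 and Hsph1 with Asns and Jund, and 1 higher, Atf3. That is 22.2% lower and 5.56% higher, against 12.4% and 5.85% of all genes, and 2 of the 18 were lower after GC centring or scaling. Hspa8 had 388 and 512 FPKM in Cnot6l-/-, 1169 and 829 FPKM in Btg4-/- and 716 and 686 FPKM in WT (-1.14 ± 0.27, adjusted p = 0.00885). Both Hspa8 and Hsph1 passed after GC centring. Of 47 translation factors 3 were lower (6.38%, against 12.4% of all genes), namely Eef2, Eif3b and Eif4h. Eif3b alone was called after GC centring, and after scaling 1 of the 47 was higher and 0 were lower. Lysosomal genes had 2 of 31 lower (6.45%), Manba and the protease gene Ctsa, and 0 higher. After GC centring 3 of the 31 were higher and 1 was lower, and Ctsa was not called (adjusted p = 0.462). Interferon response genes had 2 of 18 lower (11.1%), Isg20 and Stat2, of which Isg20 passed after GC centring. Of 8 genes of zygotic genome activation with a GV level in the range 1 was higher (12.5%, against 5.85% of all genes), the histone demethylase gene Kdm5b, with 1.49 and 1.06 FPKM in Cnot6l-/- against 0.52 and 0.63 FPKM in Btg4-/-.

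Genes of the large abundant families were seldom called. None of 80 ribosomal protein genes and none of 39 proteasome subunits was called by limma. At an unadjusted p under 0.05, 1 ribosomal gene was higher and 3 lower, and 0 proteasome genes were higher and 1 lower, and the medians of their log2 differences were -0.02 and 0.10. After GC centring these medians were 0.23 and 0.18, and 1 ribosomal and 1 proteasome gene were called higher. Of 81 nuclear-encoded oxidative phosphorylation genes 1 was called, Atp5s, which was higher. After GC centring 2 of the 81 were called higher, and the list median went from -0.003 to 0.27. Replication-dependent histone genes were higher in 5 of 21 cases (23.8%, against 5.85% of all genes), with a list median of 0.00. Hist3h2a had 9.62 and 5.51 FPKM in Cnot6l-/- and 1.13 and 2.24 FPKM in Btg4-/- (1.66 ± 0.25, adjusted p = 2.42e-04); the others, Hist1h2ag, Hist1h2bm, Hist1h4m and Hist2h3c1, were at under 4 FPKM. Histone genes are near-identical copies and most of their mRNA lacks a poly(A) tail, and after median-ratio scaling 2 of them were called.

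**Figure D5:**
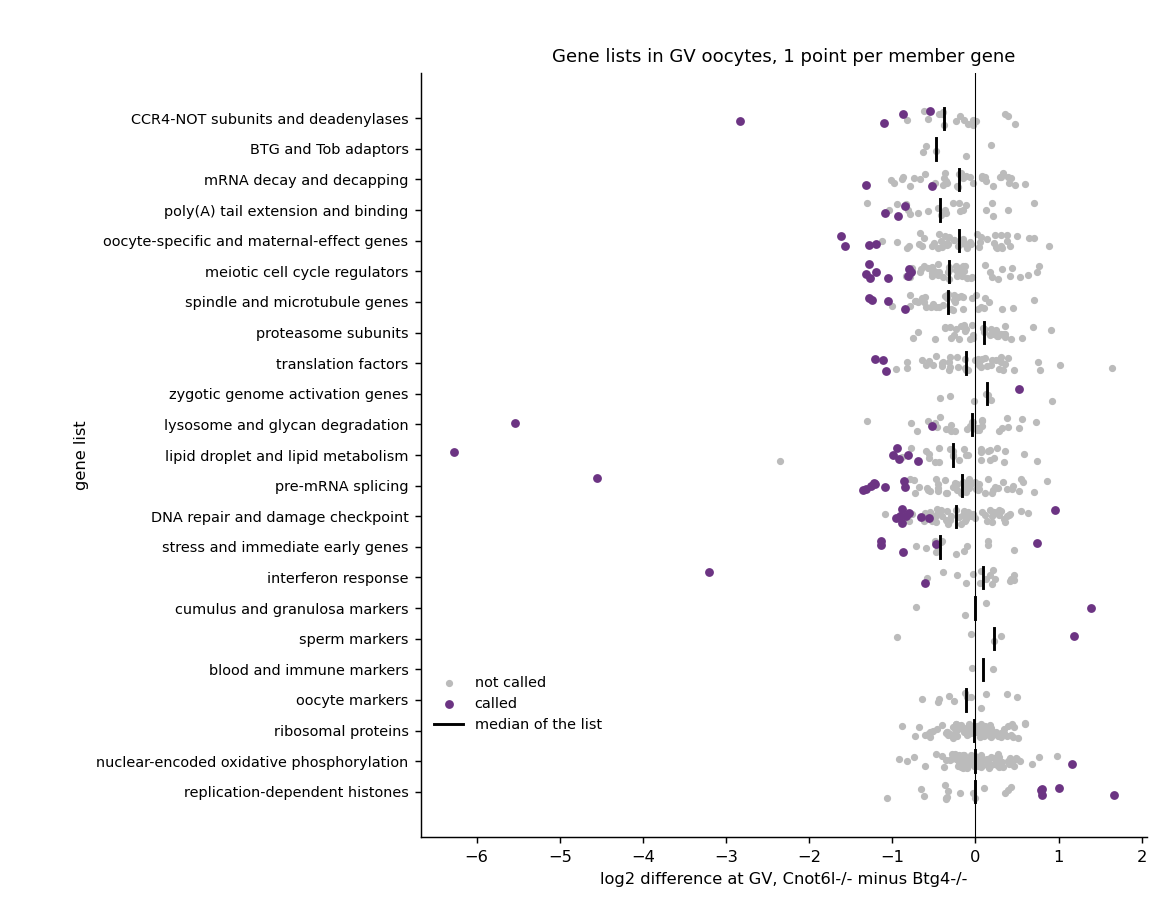
log2 difference at GV (Cnot6l-/- minus Btg4-/-, horizontal axis) of each member gene of the 23 gene lists (purple, called; grey, not called; black bar, median of the list; vertical jitter separates points). Most list members lie between -1 and 1, and the points far to the left are Pnpla3, Manba, Cdc5l, Isg20 and Cnot6l.

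The lists of markers of other cells of the follicle, of sperm and of blood summed to far less than the oocyte markers. The oocyte list summed to 9346 and 10491 FPKM in Cnot6l-/- and 8943 and 10213 FPKM in Btg4-/-. Of 12 cumulus and granulosa markers 4 were members, and their whole list summed to 30.1 and 26.9 FPKM in Cnot6l-/-, 21.6 and 17.1 FPKM in Btg4-/- and 27.0 and 20.3 FPKM in WT. Aromatase, Cyp19a1, was called higher, with 19.4 and 16.9 FPKM in Cnot6l-/- against 5.91 and 6.74 FPKM in Btg4-/- (1.39 ± 0.28, limma adjusted p = 0.00258). Gja1, Inha and Nr5a2 were not called, and 1 of them was lower in Cnot6l-/- at an unadjusted p under 0.05 by limma. The median log2 difference of the 4 was -0.0009. The other 8 markers were below 1 FPKM in both groups, and 0 of the 12 were listed at 0 in all 6 GV libraries. The part of such cells in other results was not tested. Cyp19a1 lies within 5 Mb of Btg4. Sperm markers had 1 of 5 called, the testis lactate dehydrogenase gene Ldhc, with 44.3 and 50.7 FPKM in Cnot6l-/- against 17.1 and 24.1 FPKM in Btg4-/-. The other 4 were not called, and 1 of them was lower in Cnot6l-/- at an unadjusted p under 0.05 by limma. The whole sperm list summed to 79.0 and 105 FPKM in Cnot6l-/- and 80.0 and 85.0 FPKM in Btg4-/-. Of 8 blood and immune markers 2 were members, none was called (0 at an unadjusted p under 0.05), and the list summed to 2.73 and 2.73 FPKM in Cnot6l-/- against 2.1 and 3.20 FPKM in Btg4-/-.

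Near the Cnot6l gene, within 5 Mb on chromosome 5, 3 of 43 members were higher and 3 lower, or 14.0%. The higher were Fam47e, Hpse and Naaa, and the lower were Sec31a, Shroom3 and Cnot6l itself. Within 5 Mb of Btg4 on chromosome 9, 4 of 48 were higher and 3 lower, or 14.6%. Both shares are near the 5.85% higher plus 12.4% lower of all genes. By chromosome the share of members called ran from 13.4% on X to 24.4% on chromosome 8.

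The 3′ UTRs of called members had a lower median length than those of the rest, a difference given without a test. Of members with a 3′ UTR of at least 50 bases in the gencode annotation (9576), the median length was 739 bases for those higher, 876.5 for those lower and 1004 for those not called. An AU-rich element (TATTTAT) was found in 19.02% of higher, 22.1% of lower and 28.1% of members not called. A Pumilio element (TGTANATA) was in 17.06%, 19.95% and 24.96%, and a cytoplasmic polyadenylation element (TTTTAT) in 46.27%, 46.03% and 56.88%, all on the sense strand. A longer UTR has more room for a match, and the part of length was not tested.

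A microRNA gene was among the higher members by value. Mir31 (chromosome 4, 88556461 to 88556566, minus strand, mm9) had 453 and 151 FPKM in Cnot6l-/-, was listed at 0 in both Btg4-/- libraries and had 379 and 0 FPKM in WT (adjusted p = 0.00183). WT GV 1 lay between both Cnot6l-/- libraries and WT GV 2 was listed at 0 like the Btg4-/- libraries. The log2 difference of Mir31 was 0 at MI and in zygotes and 5.51 at MII (limma adjusted p = 0.0237). The change of its difference between GV and zygote was called (-8.04, limma adjusted p = 0.0326). FPKM of so short a gene can rest on few reads. These values are of the annotated gene, and mature RNAs were not measured as such. The mature RNAs of Mir31, from RefSeq (GRCm38.p6), are shown to identify the gene, with the seed (bases 2 to 8) in capitals.
mmu-miR-31-5p: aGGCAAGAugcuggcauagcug
mmu-miR-31-3p: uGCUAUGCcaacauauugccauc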

How the data were processed

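RNA of pooled mouse oocytes and zygotes was turned into libraries with Smart-Seq2 and the Tn5 transposase, per the labels' protocols. The submitters' processing notes name CASAVA 1.8, TopHat2 2.0.11, Bowtie2 2.1.0 and Cufflinks 2.2.1 as the authors' tools and mm9 as the build. The deposited values are FPKM for 23235 genes in 24 libraries, in 1 table. Tables of 1 library each were left aside. How libraries were scaled to each other is not stated in these sources, FPKM carry no depth, and precision rests on the spread between libraries. MI columns carry other numbers than the titles and were assigned to their groups only.

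The 10884 genes whose mean reached 1 FPKM in any of the 12 groups entered limma 3.58.1 in R 4.3.3 on log2(FPKM + 1), with 1 mean per group over all 24 libraries, 12 residual degrees of freedom and a trended prior. Tests were two-sided with Benjamini-Hochberg adjustment over all genes tested, and calls were at an adjusted p under 0.05. Tested on data simulated from the group means and residual spread of the 24 libraries, with changes given to genes above 10 FPKM in Btg4-/- GV, the fit called 1, 13, 39 and 48 of 50 genes changed by 0.5, 1, 2 and 3 (log2), and 11 of 10684 unchanged genes. The simulated noise was independent between genes. It held no shift shared by many genes of a library, such as that along GC content, so it gives no rate of false calls for these libraries.

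The members, the 23 gene lists and the cell markers were chosen with earlier results of these data known. Named genes are Cnot6l, Btg4, the 15 highest and 15 lowest log2 differences among called genes that average 10 FPKM or more where they are higher, with libraries that do not overlap and a symbol other than of a predicted locus or small RNA, the 2 highest, 2 lowest and called members of each list, and called genes within 5 Mb of Cnot6l or Btg4; the text gives a subset, and 1 of the 15 lower genes is not reported here. Mir31 was chosen after its values were seen. Lists got counts and medians, with no set test. Alternatives were a pseudocount of 0.1, no filter, a filter at 5 FPKM, median-ratio scaling over 3677 genes, the 4 or 6 GV libraries alone, the replicate number as a block and each library left out in turn. Centring each GV library in 20 bins of transcript GC content, a crossed block and size limits of 1 and 2 were added after seeing the data. Transcript GC content and 3′ UTRs come from the longest coding transcript in gencode vM1, promoters and microRNAs from RefSeq. Tables and figures were made in Python 3.11.15 (pandas 2.3.3, numpy 2.4.6, matplotlib 3.10.9).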

Additional observations from a re-analysis of the deposited data

Results flagged for a closer look

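The results below are named genes whose log2 difference between Cnot6l-/- and Btg4-/- changed between GV and a later stage, by limma's test of that change (adjusted p under 0.05 over all genes tested). Signs run as the difference at the later stage minus that at GV. In each the difference on the log2(FPKM + 1) scale was nearer to 0 at the later stage. The genes were named for their large GV differences, and the added 1 FPKM shrinks differences at the lower levels of later stages. These log2 values alone thus do not show whether the ratio of the groups changed, and the genes differ in this. Pnpla3 averaged 0.16 FPKM in Cnot6l-/- and 88.5 FPKM in Btg4-/- at GV, and 0.02 FPKM in Cnot6l-/- and 12.2 FPKM in Btg4-/- in zygotes, a ratio of similar size. For Mb the FPKM themselves drew together. It averaged 11.5 FPKM in Cnot6l-/- and 0.515 FPKM in Btg4-/- at GV, and 5.35 FPKM in Cnot6l-/- and 1.39 FPKM in Btg4-/- at MI. A change of the ratio was not tested.

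Among members higher in Cnot6l-/- at GV, the change to MI was -1.12 for Ptpro and -1.63 for Mb. To MII it was -2.24 for Cyp2c53-ps, -1.16 for Defb8, -1.47 for Olfr878, -1.27 for Mb and -1.28 for Fbxo16. To the zygote it was -4.09 for Cyp2c53-ps, -1.24 for Defb8, -2.34 for Olfr878, -1.12 for Ptpro, -3.07 for Ocm and -1.61 for Fam57a. The zygote values of the other higher members were -2.92 for Akr1c21, -3.19 for Mb, -2.51 for Fbxo16 and -2.33 for Xdh.

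Among members lower in Cnot6l-/- at GV, the change to MII was 2.92 for Stk32a, 3.42 for Defb48, 2.01 for Gsto2, 2.70 for Il17b, 1.43 for Isg20 and 2.36 for Fam3b. To the zygote it was 2.60 for Pnpla3, 1.68 for Manba, 2.2 for Stk32a, 3.77 for Defb48 and 1.89 for Gsto2. For the others it was 2.50 for Il17b, 2.22 for Isg20, 2.095 for Ero1l and 1.77 for Fam3b. Of these members Defb48 was listed at 0 in both Cnot6l-/- GV libraries.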

How the results depend on the processing

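Counts are given as higher, then lower, against 623 and 1321 as reported. A pseudocount of 0.1 gave 237 and 393, a filter at 5 FPKM 246 and 567, the 4 libraries compared alone 310 and 400, and the 6 GV libraries alone 228 and 224. Median-ratio scaling gave 503 and 385, GC centring 849 and 500, and no filter 534 and 1125. Leaving out 1 library gave 326 to 696 and 327 to 1541; the low counts were those without Cnot6l-/- GV 1 (347 and 327) and without Btg4-/- GV 1 (326 and 445), in which a single library is taken to have the spread of the remaining groups. None of the called members reversed in these fits (0 in each).

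With the replicate number as a block the counts were 653 and 1432, and 1 named gene lost its call. Whether equal numbers mark paired libraries was not tested. The differences of library 2 minus library 1 correlated across members at -0.16 between Cnot6l-/- and Btg4-/-. They correlated at 0.56 between Cnot6l-/- and WT and at -0.06 between Btg4-/- and WT. Same-numbered libraries thus moved alike in Cnot6l-/- and WT, but not in Cnot6l-/- and Btg4-/-. With the Btg4-/- numbers crossed the counts were 694 and 1490.

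Members called at GV and called the same way later numbered 566 at MI, 429 at MII and 374 in zygotes. With GV calls from the 6 GV libraries and later calls from the other 18 they numbered 284, 244 and 171. At MI a pseudocount of 0.1 gave 288, scaling 364, GC centring 499 and leaving out 1 library 384 to 531. At MII leaving out 1 library gave 311 to 447, and in zygotes 181 to 421, with 181 without Cnot6l-/- GV 1 and 223 without Btg4-/- GV 1. The ratio of summed FPKM of 0.997 ran from 0.884 to 1.14 with 1 library left out and was 1.08 after scaling. Of the named genes, 38 were no longer called after GC centring, 41 after scaling, 60 with a pseudocount of 0.1 and 67 without Btg4-/- GV 1. Call status was unchanged for 128 named genes after GC centring, 114 after scaling and 107 with a pseudocount of 0.1. Fewer named genes were tested after scaling, so these counts are not all over the same set. The cause of the losses was not tested. Without counts, depth sets no stated limit, and genes near 1 FPKM are the least certain.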

Other observations

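Genes of meiotic prophase, named here after their values were seen, went in both directions at GV. Dmc1, the meiotic recombinase, had 3.48 and 3.14 FPKM in Cnot6l-/-, 0.08 and 0.04 FPKM in Btg4-/- and 0.25 and 0.17 FPKM in WT (log2 difference 2.02 ± 0.11, limma adjusted p = 2.08e-09). Hormad1, a protein of the meiotic chromosome axis, had 1.40 and 1.16 FPKM in Cnot6l-/-, 7.51 and 18.2 FPKM in Btg4-/- and 18.1 and 19.2 FPKM in WT (-2.49 ± 0.51, adjusted p = 0.00309). Ccnb1ip1, a crossover factor, had 2.35 and 1.36 FPKM in Cnot6l-/-, 13.3 and 22.9 FPKM in Btg4-/- and 34.4 and 30.6 FPKM in WT (-2.71 ± 0.43, adjusted p = 3.74e-04).

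Among genes of cell surface and lipids, also named after their values were seen, N-cadherin (Cdh2) had 14.8 and 11.1 FPKM in Cnot6l-/- and 2.06 and 2.17 FPKM in Btg4-/- (2.15 ± 0.25, adjusted p = 1.26e-05). Its log2 difference was 1.62 at MI, 2.17 at MII and 2.27 in zygotes. Ugcg, the synthase of glucosylceramide, had 3.34 and 2.38 FPKM in Cnot6l-/- against 19.9 and 20.0 FPKM in Btg4-/- (-2.45 ± 0.66, adjusted p = 0.017), and Osbp, a sterol-binding transfer protein, had 2.21 and 2.15 FPKM in Cnot6l-/- against 12.8 and 12.9 FPKM in Btg4-/-. The signalling adaptor gene Grb7 had 0.17 and 0.16 FPKM in Cnot6l-/-, 11.2 and 7.47 FPKM in Btg4-/- and 0.26 and 0.28 FPKM in WT. The small nucleolar RNA Snora47 had 0 and 11.1 FPKM in Cnot6l-/-, 523 and 221 FPKM in Btg4-/- and 1033 and 33.6 FPKM in WT. Its WT libraries lay far apart, on either side of the Btg4-/- values, and both were above the Cnot6l-/- values.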
